A study of Homo sapiens with 12 samples.

Results

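ONS76 and DAOY are established human medulloblastoma cell lines. Both were labelled wild type and were kept in artificial cerebrospinal fluid in multi-well plates, and polyadenylated RNA was sequenced from cultures left unshaken (static) or swirled at 100 rpm on an orbital shaker for 18 h (fluid shear stress, FSS). The comparison described here sets the 3 static ONS76 libraries against the 3 static DAOY libraries, which are 6 of the 12 libraries of the series, and so asks how the lines differ without shear. It covers the 19631 genes that passed a count filter out of 63241 genes in the deposited table. Each line is a single line grown from 1 tumour, so a difference between them describes these lines and not a tumour class. Nothing in the labels says whether the replicates were separate cultures, and p-values therefore measure only the spread between these libraries. In bulk RNA, fewer cells of a type and less RNA per cell cannot be told apart.

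Medulloblastoma is an embryonal tumour of the cerebellum that is sorted into WNT, SHH, Group 3 and Group 4 subgroups by expression and DNA changes. The SHH subgroup is linked to granule neuron precursors, in which Sonic hedgehog binds PTCH1, releases SMO and turns on the GLI factors. TP63 is the transcription factor that maintains basal cells of stratified epithelia, fibrillar collagens and fibronectin are made mainly by mesenchymal cells, and HOX genes record position along the body axis. DAOY is usually described as a line of the SHH subgroup, and the subgroup of neither line was tested here.

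Some genes were transcribed in one line and read at or near 0 in the other. The 250 bases before the RefSeq start of 4 of them are printed here to show what lies upstream of such genes. SLFN11 (a nuclease-like factor that sensitises cells to DNA damage) and WNT5A (a non-canonical WNT ligand) were at 0 in ONS76, whereas KLHL9 (a substrate adaptor of a ubiquitin ligase) was at 0 and KRT75 (a hair follicle keratin) under 1 CPM (counts scaled to library size) in DAOY. Capitals mark each CG dinucleotide, the sequences run 5′ to 3′ on the minus strand that each gene uses, and they come from RefSeq on GRCh38.p14. For SLFN11, WNT5A and KRT75 the GENCODE 29 gene starts further upstream than the RefSeq start, so part or all of the printed stretch lies inside that gene.
SLFN11 (chr17:35373622-35373871): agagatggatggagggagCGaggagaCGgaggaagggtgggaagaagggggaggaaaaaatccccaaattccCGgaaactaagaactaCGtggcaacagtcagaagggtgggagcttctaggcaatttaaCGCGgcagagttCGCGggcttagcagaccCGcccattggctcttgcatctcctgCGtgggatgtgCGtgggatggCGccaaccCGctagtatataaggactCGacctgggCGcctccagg
WNT5A (chr3:55487307-55487556): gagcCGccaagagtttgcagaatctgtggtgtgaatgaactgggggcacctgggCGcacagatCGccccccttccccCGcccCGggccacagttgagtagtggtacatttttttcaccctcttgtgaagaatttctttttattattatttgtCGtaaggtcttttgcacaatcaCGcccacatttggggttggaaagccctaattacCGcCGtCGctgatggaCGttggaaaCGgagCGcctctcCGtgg
KLHL9 (chr9:21335405-21335654): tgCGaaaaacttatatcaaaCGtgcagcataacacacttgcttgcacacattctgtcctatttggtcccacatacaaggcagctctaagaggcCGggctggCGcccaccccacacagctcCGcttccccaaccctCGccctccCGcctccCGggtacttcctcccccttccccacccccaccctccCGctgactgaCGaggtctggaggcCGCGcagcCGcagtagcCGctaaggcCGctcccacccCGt
KRT75 (chr12:52434372-52434621): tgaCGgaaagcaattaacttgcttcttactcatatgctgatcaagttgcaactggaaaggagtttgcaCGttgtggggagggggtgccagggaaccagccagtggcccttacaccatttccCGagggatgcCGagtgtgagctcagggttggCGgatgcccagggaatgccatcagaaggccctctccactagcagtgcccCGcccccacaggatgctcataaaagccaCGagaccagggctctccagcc

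The stretches hold 15 CG dinucleotides in SLFN11, 14 in WNT5A, 16 in KLHL9 and 7 in KRT75. A gene was called on in a line when every library there had at least 5 CPM (scaled by edgeR's TMM factors), and off in the other line when its 3 libraries together held 3 counts or fewer. By that rule 171 genes were on in DAOY and off in ONS76, 146 of them protein-coding. Another 21 were on in ONS76 and off in DAOY, 14 of them protein-coding. KRT75, with 71 counts over the static DAOY libraries, was not among them. RefSeq gave an upstream stretch for 111 of the 146 genes, with a median of 16 CG dinucleotides, and 56.8% of these stretches held 15 or more. Among the 7354 matched protein-coding genes at 5 CPM or more in both lines the median was 22, and 78.5% held 15 or more. All 11401 matched tested protein-coding genes had a median of 20. For the 11 matched genes on only in ONS76 the median was 15. These counts describe the stretches and were not tested.

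Host transcripts of microRNAs differed in both directions. Their mature products are shown because the seed (bases 2 to 8, in capitals) is the part that pairs with target messengers. The libraries measured host transcripts and not mature microRNAs. Hosts higher in ONS76 carry these products, among others.
hsa-miR-205-5p: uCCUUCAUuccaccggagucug
hsa-miR-31-5p: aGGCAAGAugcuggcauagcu
hsa-miR-675-5p: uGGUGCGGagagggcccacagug
hsa-miR-99a-5p: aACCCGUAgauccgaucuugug
hsa-let-7c-5p: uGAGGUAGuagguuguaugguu
Hosts higher in DAOY carry the following products, among others.
hsa-miR-9-5p: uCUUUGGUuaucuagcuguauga
hsa-miR-181a-5p: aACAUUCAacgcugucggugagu
hsa-miR-181b-5p: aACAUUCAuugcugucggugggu
hsa-miR-4458: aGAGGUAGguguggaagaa

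MIR205HG, the host of miR-205, which is a microRNA of stratified epithelia, was at 67.7, 64.9 and 54.5 CPM in ONS76 replicates 1, 2 and 3 and at 0 in every static DAOY library. Against a floor of 3 counts over the DAOY libraries this is at least 2747-fold higher in ONS76. MIR31HG was at 24.8, 25 and 21 CPM in ONS76 and at 0.379, 0.227 and 0.354 in DAOY, a log2 difference of 6.19 ± 0.164 (SE). Here and below the SE was derived from the test's F statistic, and it is too small where a line has few counts. H19, the imprinted host of miR-675, was uneven among ONS76 libraries, at 33.7, 68.5 and 22.5 CPM, but stayed under 0.5 CPM in DAOY. MIR99AHG was higher in ONS76 by 2.53 ± 0.164 on the log2 scale. In the other direction MIR4458HG had 732 counts in DAOY and none in ONS76, MIR9-1HG differed by -4.08 ± 0.34, and MIR181A1HG by -3.63 ± 0.75 at levels below 1 CPM. The product of MIR4458HG has the seed GAGGUAG. Products of MIR99AHG (let-7c-5p), of MIRLET7BHG (log2 difference 1.37) and of MIR100HG (-0.50) have the same seed. The products miR-181a-5p and miR-181b-5p share a seed with each other. Of 23 tested host transcripts, 8 were at least 2-fold higher in ONS76 and 9 in DAOY. Over all tested genes the shares were 18.2% and 29.5%. The median log2 difference of the hosts was -0.12, against -0.10 over all tested genes.

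The lines differed at most expressed genes. By edgeR's quasi-likelihood test with Benjamini-Hochberg adjustment, 15908 of the 19631 genes (81.0%) passed an adjusted p of 0.05, with 7433 (37.9%) higher in ONS76 and 8475 (43.2%) higher in DAOY. Because small differences pass when replicates are this close, lists are counted below at 2-fold or more, which 9361 genes (47.7%) reached, 3578 (18.2%) of them higher in ONS76 and 5783 (29.5%) higher in DAOY. The 4-fold counts were 1480 (7.54%) and 3992 (20.3%). At 8-fold the figures were 797 (4.06%) and 2926 (14.9%). The direction of small differences depends on scaling, since a test on the TPM of the authors (levels scaled for transcript length and depth) put only 31.6% of its calls higher in ONS76, against 46.7% here, with the median of all genes moved by -0.23. The static libraries held 38.1 M to 49.3 M counts, and the first principal component of the static libraries held 98.9% of their variance and separated the lines. Replicate 3 of static ONS76 stood somewhat apart from its partners, with lower mitochondrial transcripts and with MYH7, a myosin of heart muscle, at 0.0558 CPM against 21.4 and 7.36.

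DAOY transcribed more genes. At 1 TPM or more there were 13252 to 13369 genes in the static ONS76 libraries and 15920 to 16216 in the static DAOY libraries, ranges that do not overlap. The excess of DAOY was also seen at higher minimum levels, with 9708 tested genes in ONS76 and 11146 in DAOY at a line mean of 5 TPM or more and 8148 and 9123 at 10 TPM or more. Where the higher line was between 1 and 5 TPM, 1499 genes were at least 4-fold higher in DAOY and 372 in ONS76, and between 20 and 100 TPM the counts were 449 and 311. Above 100 TPM the order turned, with 90 in DAOY and 196 in ONS76. With TMM scaling, protein-coding genes were called almost evenly, 6129 towards ONS76 and 6146 towards DAOY. The split of all calls depended on scaling, and upper-quartile scaling gave 6114 towards ONS76 and 9830 towards DAOY. With TMM, long intergenic RNAs were called 446 and 848 times, and antisense RNAs 252 and 485 times. The most abundant transcripts were shared. EEF1A1, an elongation factor, stood at 14020 ± 237 TPM (SD, n = 3) in ONS76 and 13598 ± 162 in DAOY, and RPL8, a ribosomal protein, at 12528 ± 123 and 5854 ± 108.

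**Figure D1:**
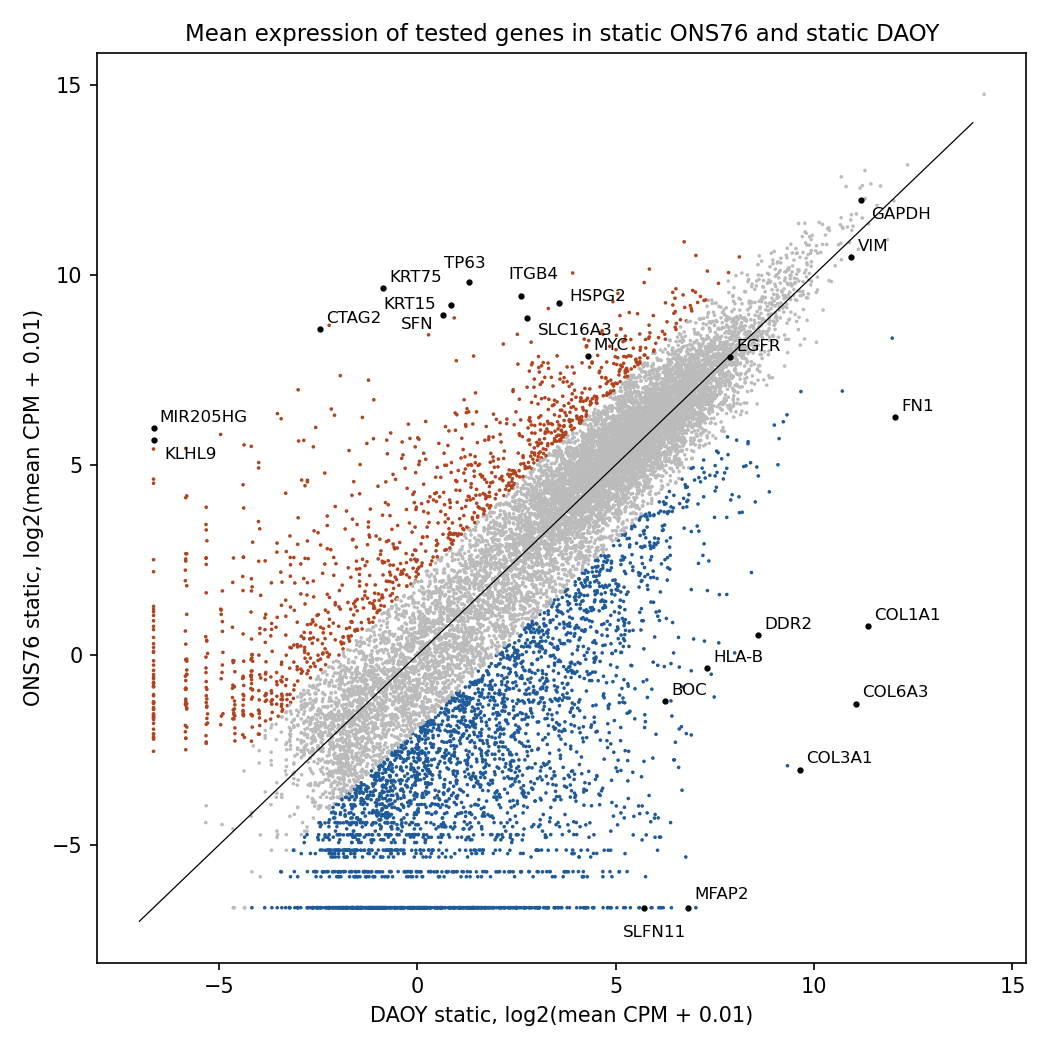
Mean expression of each tested gene in static DAOY (horizontal) and static ONS76 (vertical), as log2 of mean CPM plus 0.01, with 3 libraries per line. Orange-red and blue points are genes called and at least 4-fold higher in ONS76 or DAOY, black points are named genes, and the line marks equal levels; the row of points along the lower edge is genes read at 0 in ONS76.

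The largest differences among well-expressed genes were of many kinds. CTAG2, a cancer-testis antigen, was at 390, 377 and 377 CPM in ONS76 and at 0.29, 0.0907 and 0.141 in DAOY (log2 difference 11.06 ± 0.108, adjusted p = 5.2e-38). PNMA5, a paraneoplastic antigen family gene, differed by 10.93 ± 0.0849, GNA15, a G protein alpha subunit of epithelial and blood cells, by 10.08 ± 0.109, and SERPINB5 (maspin) by 9.74 ± 0.132. HS3ST1, a heparan sulfate sulfotransferase, had 6499 counts in ONS76 and 3 in DAOY. Opposite to these, SPANXB1, a sperm protein gene with near-identical copies, was at 0 in ONS76 and at 138, 123 and 129 CPM in DAOY, at least 5023-fold higher. MFAP2, a microfibril protein, was at 0 in ONS76 and at 112, 105 and 122 CPM in DAOY, at least 4362-fold higher. NEFL, the light neurofilament chain, was at 0 and at 73.0, 62.3 and 74.7 CPM, at least 2704-fold higher, WNT5A at 0 and at 69.4, 69.0 and 65.6 CPM, at least 2628-fold higher, and SLFN11 at 0 and at 49.0, 52.6 and 55.7 CPM, at least 2023-fold higher. The rule that picked these genes required that the libraries of the lines did not overlap, so this is no further result. Of all tested genes, 16064 (81.8%) met that requirement.

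Genes of squamous and basal epithelium were the group most one-sided towards ONS76. Of 26 tested members of a list of 37, 22 were at least 2-fold higher in ONS76 and none in DAOY, with a median log2 difference of 4.27 against -0.10 over all tested genes. TP63 was at 965, 892 and 828 CPM in ONS76 and at 1.94, 2.59 and 2.90 in DAOY (8.50 ± 0.0816, adjusted p = 3.3e-38). KRT75 was at 804, 806 and 816 CPM against 0.625, 0.386 and 0.613 (10.54 ± 0.0791). KRT15, a keratin of basal and hair follicle stem cells, was at 598, 619 and 556 CPM against 1.81, 1.59 and 1.93 (8.38 ± 0.0725). All ONS76 libraries lay far above all DAOY libraries for these 3 genes. SFN, the epithelial 14-3-3 protein, was at 498, 472 and 512 CPM against 1.36, 1.68 and 1.63 (8.31 ± 0.0815), S100A2 at 1173, 1084 and 1153 against 59.3, 57.9 and 55.8 (4.30 ± 0.0531), and TRIM29 differed by 9.07 ± 0.181.

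The hemidesmosome, which anchors basal cells to the basement membrane, was part of this pattern. ITGB4, its integrin beta chain, was at 707, 680 and 717 CPM in ONS76 and at 5.87, 5.35 and 7.19 in DAOY (6.84 ± 0.0715). LAMB3, a chain of its laminin ligand, differed by 3.84 ± 0.0604, and COL17A1, its transmembrane collagen, by 3.60 ± 0.104. The desmosomal plaque protein PKP3 differed by 4.80 ± 0.0583, but the plaque protein DSP was lower in ONS76, at -0.34 ± 0.0409. The list was not high throughout. KRT14, the usual partner keratin of basal cells, had 592 counts over the 3 ONS76 libraries and 13 in DAOY, KRT5 was under 2 CPM in every library of ONS76, and 11 of the 37 members were below the count filter or at 0 in all libraries. KRT6A, which has near-identical copies, had 642 counts in ONS76 and 1 in DAOY.

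General epithelial genes were split between the lines, with 8 of 24 tested members at least 2-fold higher in ONS76 and 8 in DAOY. Over all tested genes the shares were 18.2% and 29.5%, and the sign of the list's median changed with scaling. CLDN1, a tight junction protein, differed by 4.48 ± 0.0596 and EHF, an epithelial ETS factor, by 8.60 ± 0.164 towards ONS76, whereas OCLN, another tight junction protein, was at 5.69, 4.37 and 6.97 CPM in ONS76 and 78.5, 75.1 and 73.8 in DAOY (-3.74 ± 0.0828). KRT8, a simple epithelial keratin, was higher in ONS76 by 2.21 ± 0.0392, and its partner KRT18 by 0.31 ± 0.0384, which turned to -0.10 on the authors' TPM. CDH1, the epithelial cadherin, had 8 counts in ONS76 and 17 in DAOY over 3 libraries each, and CDH2, the neural and mesenchymal cadherin, was at 300, 291 and 278 CPM in ONS76 and 281, 278 and 261 in DAOY (0.09 ± 0.039, adjusted p = 0.0458), a sign that turned on the authors' TPM (-0.33) and with upper-quartile scaling (-0.14).

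**Figure D2:**
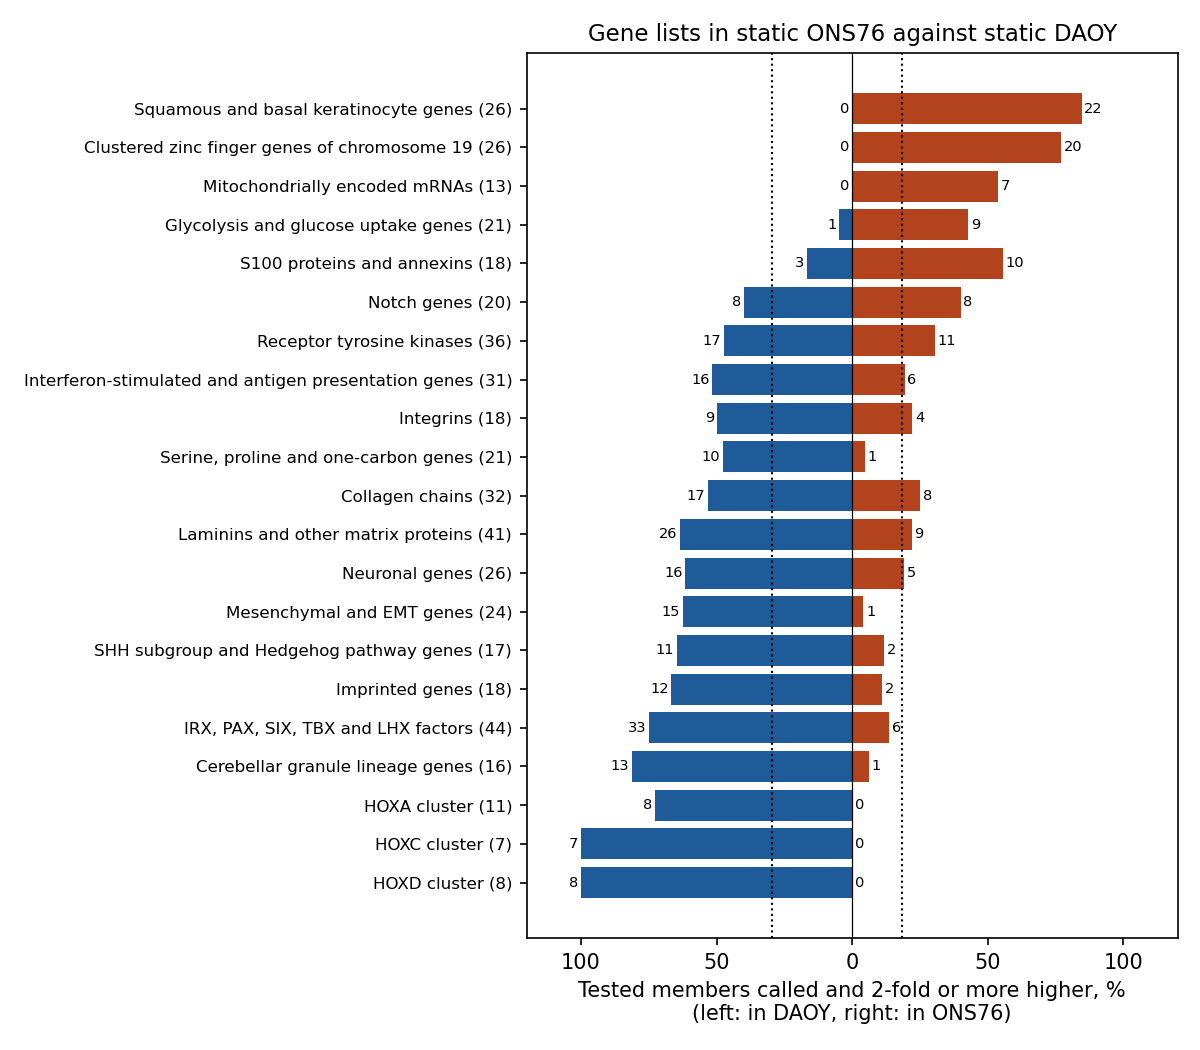
Share of tested members of each gene list that were called and at least 2-fold higher in static DAOY (blue, left) or static ONS76 (orange-red, right), in percent, with the count at each bar end and the number tested in brackets. Dotted lines mark the shares over all tested genes, 29.5% on the left and 18.2% on the right; squamous genes lie furthest to the right and the HOXC and HOXD clusters furthest to the left.

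Transcripts of the fibrillar matrix were higher in DAOY. Of 24 tested mesenchymal and epithelial-mesenchymal transition genes, 15 were at least 2-fold higher in DAOY and 1 in ONS76, and of 32 collagen chains 17 and 8. COL1A1 was at 1.66, 1.69 and 1.70 CPM in ONS76 and at 2745, 2422 and 2740 in DAOY (-10.61 ± 0.0815, adjusted p = 1.19e-40). COL6A3, a chain of beaded-filament collagen, was at 0.455, 0.221 and 0.53 CPM against 2103, 2193 and 2057 (-12.34 ± 0.0836). COL3A1 had 14 counts in ONS76 and 105288 in DAOY, and COL1A2 had 16 and 84529. The libraries of the lines did not overlap for any of these chains. FN1, fibronectin, was present in ONS76 but lower, at 77.5, 77.1 and 75.7 CPM against 4229, 4268 and 4176 (-5.78 ± 0.0427). SPARC, a collagen-binding matrix protein, was at 15.3, 12.3 and 12.9 CPM against 300, 270 and 305 (-4.43 ± 0.0605), and TGFBI at 329, 326 and 314 against 3979, 3880 and 4179 (-3.63 ± 0.0383).

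VIM, the intermediate filament often used as a mesenchymal marker, was abundant in both, at 1454, 1395 and 1420 CPM in ONS76 and 1942, 1916 and 2024 in DAOY (-0.46 ± 0.0356). Among the transcription factors of this list, TWIST1 was lower in ONS76 by -2.64 ± 0.0803 on the log2 scale and TWIST2 had 1 count in ONS76 against 2365 in DAOY. PDGFRB, the receptor of pericytes and fibroblasts, differed by -4.85 ± 0.166. MMP14, the membrane collagenase, was the closest match, at 680, 654 and 691 CPM in ONS76 and 672, 660 and 692 in DAOY (0.00 ± 0.0355, adjusted p = 0.988), though it was called higher in DAOY on the authors' TPM (-0.41). The secreted protease ADAMTS5 had 5 counts in ONS76 and 5783 in DAOY, and MMP2, a gelatinase, differed by -3.31 ± 0.049.

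Of 41 tested laminins and other matrix proteins, 26 were at least 2-fold higher in DAOY and 9 in ONS76. Basement membrane components were found on both sides. HSPG2 (perlecan) was at 602, 617 and 630 CPM in ONS76 and at 11.2, 12.5 and 12.0 in DAOY (5.70 ± 0.0539). LAMA5 was at 893, 876 and 897 CPM against 49.8, 53.6 and 54.6 (4.08 ± 0.0464), and LAMA1 was higher in ONS76 by 3.22 ± 0.0516. These are laminin alpha chains, whereas LAMA4, the alpha chain of vessel and muscle basement membranes, was at 32.1, 30.0 and 34.1 CPM in ONS76 and 539, 556 and 542 in DAOY (-4.09 ± 0.0469). The common beta and gamma chains LAMB1 and LAMC1 differed by only -0.15 ± 0.0335 and -0.09 ± 0.0338. COL4A5 was higher in ONS76 by 3.46 ± 0.0539 and COL18A1 by 3.24 ± 0.0568. NID1, the nidogen that links laminin to collagen IV, went the other way at -7.63 ± 0.102, as did the fibrillin FBN2 at -7.54 ± 0.103.

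Integrins, the main receptors for matrix, differed in both directions. Among 18 tested integrins 4 were at least 2-fold higher in ONS76 and 9 in DAOY. The laminin receptor chains ITGA3 and ITGA6 were higher in ONS76, ITGA3 at 1887, 1805 and 1918 CPM against 108, 108 and 101 (4.15 ± 0.0423) and ITGA6 by 3.85 ± 0.0467. ITGA4, a fibronectin receptor chain, differed by -6.11 ± 0.132 and ITGA11, a collagen receptor chain, by -6.67 ± 0.245. ITGB5 did not pass the test, at 0.03 ± 0.036 (adjusted p = 0.394), but was called lower in ONS76 on the authors' TPM (-0.38). The 2 discoidin receptors of collagen were split between the lines. DDR1 was higher in ONS76 by 3.01 ± 0.0425, and DDR2 was at 1.18, 1.61 and 1.48 CPM in ONS76 and 389, 387 and 387 in DAOY (-8.10 ± 0.0831).

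**Figure D3:**
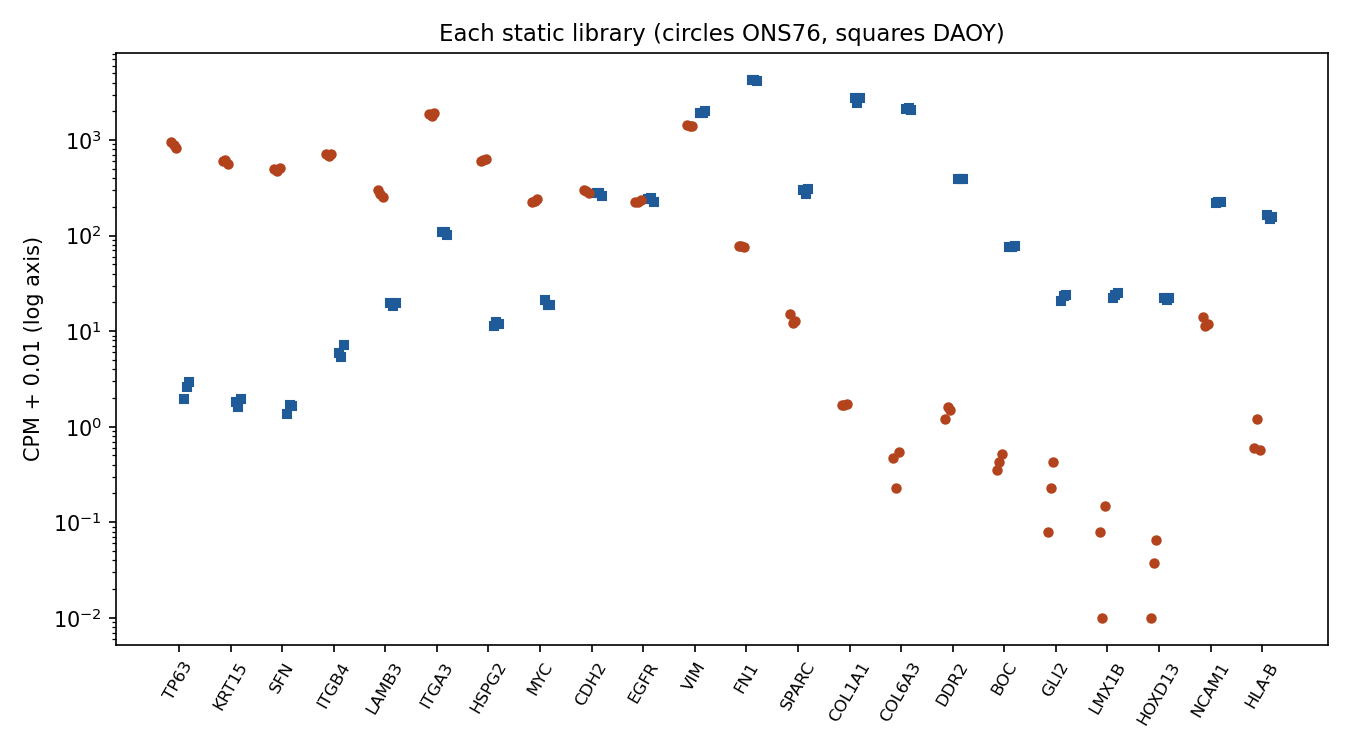
CPM plus 0.01 in each static library (log axis) for 22 genes, with circles for the 3 ONS76 libraries and squares for the 3 DAOY libraries. Libraries of a line lie close together, and the lines are far apart for TP63 and COL1A1 but share a range for EGFR.

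The HOX genes, homeobox factors that set position along the body axis and limbs, differed towards DAOY. All 7 tested members of the HOXC cluster and all 8 of the HOXD cluster, noncoding RNAs included, were at least 2-fold higher in DAOY, as were 8 of 11 in HOXA and 2 of 4 in HOXB, and none was called higher in ONS76. The median of the HOXD genes was -6.24, or -4.78 with genes at 0 in ONS76 set to their bound. HOXC12, a posterior gene, was at 0 in ONS76 and at 41.6, 40.5 and 42.1 CPM in DAOY, at least 1599-fold higher. HOXD13, the last gene of its cluster, had 3 counts in ONS76 and 2871 in DAOY. HOXD10 was read in both, at 17.6, 16.7 and 14.6 CPM against 70.6, 76.8 and 74.2 (-2.18 ± 0.0587). HOXB7 was the nearest to equal of those called, at -0.30 ± 0.0727. HOTAIR, a noncoding RNA of the HOXC cluster, was at 0 in ONS76 and had 739 counts in DAOY, at least 217-fold higher.

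Of 44 tested IRX, PAX, TBX, LHX and related factors, 33 were at least 2-fold higher in DAOY and 6 in ONS76. LMX1B, which patterns dorsal limb and midbrain, had 8 counts in ONS76 and 3129 in DAOY, and PAX3, a neural crest and muscle factor, had 12 and 1979. MSX2 was at 0 in ONS76 and had 2810 counts in DAOY, at least 827-fold higher. EN1 and EN2, factors of the midbrain-hindbrain boundary, differed by -4.15 ± 0.142 and -1.41 ± 0.0768. Those higher in ONS76 included PITX1, a hindlimb and pituitary factor, at 241, 234 and 234 CPM against 53.7, 50.2 and 54.0 (2.17 ± 0.0478). The neighbours IRX3 and IRX5 were higher in ONS76 by 1.97 ± 0.0593 and 1.60 ± 0.101, whereas IRX1 was at 0 in ONS76 and had 751 counts in DAOY.

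Markers of medulloblastoma and of its cerebellar origin were compared between the lines, which assigns neither line to a subgroup. Of 17 tested SHH and Hedgehog genes, 11 were at least 2-fold higher in DAOY and 2 in ONS76. GLI1, the pathway's own target and effector, was at 0.637, 0.609 and 0.865 CPM in ONS76 and 8.74, 8.66 and 9.45 in DAOY (-3.67 ± 0.169). GLI2 was at 0.0683, 0.221 and 0.418 CPM against 20.7, 23.3 and 23.9 (-6.64 ± 0.19). The co-receptor BOC was at 0.342, 0.415 and 0.502 CPM against 75.5, 75.6 and 78.0 (-7.52 ± 0.106), and SMO, the signal transducer, differed by -3.40 ± 0.0877. DAOY was the higher line in every library for these genes. PTCH1, the receptor, was close in both, at 42.5, 40.8 and 39.5 CPM against 61.0, 63.5 and 61.4 (-0.60 ± 0.048). The ligand SHH was higher in ONS76, at 7.97, 8.80 and 7.75 CPM in ONS76 and 0.178, 0.431 and 0.33 in DAOY (4.70 ± 0.21).

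Of 16 tested cerebellar granule lineage genes, 13 were at least 2-fold higher in DAOY and 1 in ONS76. ZIC1 and PAX6, granule cell factors, differed by -5.26 ± 0.128 and -4.96 ± 0.141. The defining factor ATOH1 had 0 counts in ONS76 and 4 in DAOY, and NEUROD1 was listed at 0 in both. Neuronal genes gave 16 of 26 at least 2-fold higher in DAOY and 5 in ONS76, with NCAM1, a neural adhesion molecule, at 14, 11.2 and 11.8 CPM against 219, 226 and 223 (-4.17 ± 0.0617). NES, the neural stem cell filament, did not pass the test at -0.31 ± 0.15 (adjusted p = 0.0589), but did without replicate 3 of ONS76 (0.0119) or replicate 1 of DAOY (0.0256). Group 3 genes gave 5 of 8 towards DAOY and 1 towards ONS76, the latter being MYC, and OTX2, which marks Group 3 and Group 4 tumours, had 0 counts in ONS76 and 376 in DAOY. For 17 tested WNT genes, 9 were at least 2-fold higher in DAOY and 4 in ONS76. LEF1, a nuclear effector, had 11 counts in ONS76 and 3022 in DAOY, while WNT7B, a ligand, was higher in ONS76 by 4.27 ± 0.0896.

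Lists of genes that mark other cell types were read in part. The summed TPM of endothelial genes was 23.9 to 25.7 in ONS76 and 87.6 to 91.7 in DAOY, with 10 of 15 members at least 2-fold higher in DAOY and 4 in ONS76. TIE1, an endothelial receptor, had 9 counts in ONS76 and 2424 in DAOY, whereas CDH5, the endothelial cadherin, was at 15.2, 13.1 and 13.2 CPM in ONS76 and under 0.4 CPM in DAOY. Leukocyte genes summed to 3.11 to 3.29 TPM in ONS76 and 11.9 to 16.2 in DAOY, with 9 of 16 below the filter. Skeletal and cardiac muscle genes summed to 296 to 314 TPM in ONS76 and 213 to 232 in DAOY, mostly through TNNT1, a slow muscle troponin, with means of 284 and 150 TPM. Of the 11 tested muscle genes, 3 were at least 2-fold higher in ONS76 and 7 in DAOY, and 5 of the 29 members were at 0 in all 12 libraries. Pluripotency and germ cell genes summed to 9.37 to 12.8 TPM in ONS76 and 123 to 126 in DAOY, with 1 and 4 of the 6 tested at least 2-fold higher. Melanocyte genes summed to 8.5 to 8.98 and 17 to 17.8 TPM, and 5 of the 6 tested were at least 2-fold higher in DAOY. Their part in the results was not tested.

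Single genes of growth arrest and stress were higher in one line or the other. CDKN1A, which encodes the cell cycle inhibitor p21, was at 194, 187 and 208 CPM in ONS76 and 86.9, 71.8 and 74.7 in DAOY (1.33 ± 0.0512). GDF15, a stress cytokine, was higher in ONS76 by 2.77 ± 0.0529. The kinase PLK2 was lower in ONS76, at 70.8, 72.3 and 67.9 CPM against 587, 592 and 617 (-3.09 ± 0.0397). The libraries of the lines did not overlap for CDKN1A or PLK2. The death receptor TNFRSF10A was at 0 in ONS76 and had 1647 counts in DAOY, at least 484-fold higher.

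MYC was at 227, 232 and 240 CPM in ONS76 and 21.3, 18.9 and 18.7 in DAOY (3.57 ± 0.0539, adjusted p = 4.31e-33). Its relative MYCN had 1 count in ONS76 and 60 in DAOY. CDK6 and CCND1, which act together at the start of the cell cycle, were higher in ONS76 by 1.76 ± 0.0468 and 1.11 ± 0.0565. Few genes of replication and mitosis differed by 2-fold. Of 28 tested G1/S genes 1 was at least 2-fold higher in ONS76 and 2 in DAOY, and of 29 G2/M genes 1 in each line. At any size, 85.7% of the G1/S genes and all 29 G2/M genes were called, beside 81.0% of all tested genes. Summed TPM was 2312 to 2409 in ONS76 and 3530 to 3634 in DAOY for G1/S genes. For G2/M genes it was 3565 to 3796 and 5091 to 5313. The TPM scale moved the median of all genes towards DAOY, as given above.

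Receptor tyrosine kinases differed in both directions, with 11 of 36 at least 2-fold higher in ONS76 and 17 in DAOY. EGFR was at 227, 225 and 235 CPM in ONS76 and 239, 249 and 227 in DAOY, which did not pass the test (-0.06 ± 0.0399, adjusted p = 0.185) but did with upper-quartile scaling (-0.28). FGFR2, a receptor of epithelia, was at 130, 121 and 107 CPM in ONS76 against 2.21, 3.06 and 3.02 (5.43 ± 0.0884). MET, the receptor of hepatocyte growth factor, was at 931, 890 and 920 CPM against 239, 241 and 208 (1.99 ± 0.0462). NTRK2, the neurotrophin receptor, was higher in ONS76 by 6.48 ± 0.164, whereas ERBB2 was lower by -4.61 ± 0.112 and ROR2, a receptor of WNT5A, by -6.13 ± 0.173. For ERBB2 and ROR2 each DAOY library exceeded each ONS76 library.

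Notch genes also divided. NOTCH1 was at 636, 612 and 635 CPM in ONS76 and 31.7, 31.0 and 28.7 in DAOY (4.36 ± 0.0527), and NOTCH3 differed by -5.45 ± 0.224. The ligand JAG2 and the glycosyltransferase LFNG, which modifies Notch, were higher in ONS76 by 3.86 ± 0.0527 and 5.33 ± 0.0757. Of the pathway's target genes, HEY1 was higher in ONS76 by 0.62 ± 0.0555 and HES1 differed by -0.13 ± 0.0501. Of 20 Notch genes, 8 were at least 2-fold higher in each line, beside 18.2% of all tested genes for ONS76 and 29.5% for DAOY.

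TGF-beta, BMP and activin genes were higher in DAOY in 16 of 33 tested members and in ONS76 in 3, at 2-fold or more. BMP7, BMP4 and TGFB2, all ligands, differed by -4.32 ± 0.0995, -4.08 ± 0.122 and -4.21 ± 0.0922. INHBA, the activin subunit, was at 1.05, 0.72 and 0.614 CPM in ONS76 and 111, 93.7 and 87.5 in DAOY (-6.90 ± 0.122). FST (follistatin), which binds activin, was at 551, 547 and 565 CPM in ONS76 and 9.97, 10.5 and 9.19 in DAOY (5.81 ± 0.0529). The ligand and its inhibitor thus stood in opposite lines. Targets of YAP and TAZ were at least 2-fold higher in DAOY in 12 of 29 and in ONS76 in 1. CCN1, a matricellular target, was at 16.8, 19.2 and 17.8 CPM against 279, 273 and 275 (-3.94 ± 0.0558) and ANKRD1 differed by -5.20 ± 0.0831. The coactivators differed less, YAP1 by -1.17 ± 0.0399 and WWTR1 (TAZ) by 0.76 ± 0.0381. Of the mechanosensitive channels, PIEZO1 was at 85.3, 87.9 and 93.1 CPM in ONS76 and 54.1, 53.4 and 52.1 in DAOY (0.74 ± 0.0501), and PIEZO2 at 0.228, 0.36 and 0.669 against 9.17, 12.3 and 10.0 (-4.68 ± 0.21). Of 28 tested mechanosensitive and calcium channels, 9 were at least 2-fold higher in each line. The shares over all tested genes were 18.2% for ONS76 and 29.5% for DAOY.

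Antigen presentation genes differed mostly towards DAOY. Of 31 tested interferon-stimulated and antigen presentation genes, 16 were at least 2-fold higher in DAOY and 6 in ONS76. HLA-B was at 0.592, 1.19 and 0.558 CPM in ONS76 and 163, 149 and 158 in DAOY (-7.67 ± 0.0931). HLA-C differed by -6.27 ± 0.067. These genes are polymorphic, and reads from alleles far from the reference may be lost in either line, which was not tested. B2M, the invariant light chain, differed little (-0.34 ± 0.0375), and HLA-E, a less variable class I gene, was higher in ONS76 at 273, 253 and 259 CPM against 118, 113 and 115 (1.18 ± 0.0414). PSMB9, an immunoproteasome subunit, and the antiviral MX1 were lower in ONS76 by -3.44 ± 0.157 and -4.85 ± 0.174. ISG20, an interferon-induced exonuclease, was higher by 5.05 ± 0.119.

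Cancer-testis antigens were read in both lines, with different members higher in each. Of 19 tested, 7 were at least 2-fold higher in ONS76 and 10 in DAOY. MAGEA3, which has a near-identical copy, was at 426, 410 and 431 CPM in ONS76 and 93.9, 91.3 and 92.0 in DAOY (2.19 ± 0.0395). MAGEB2 was at 0 in ONS76 and at 84.3, 80.7 and 89.3 CPM in DAOY, at least 3273-fold higher. PAGE5 differed by -7.32 ± 0.103. Imprinted genes were at least 2-fold higher in DAOY in 12 of 18 and in ONS76 in 2. MEST, a paternally expressed gene, was at 1.32, 1.66 and 0.753 CPM in ONS76 and 196, 199 and 186 in DAOY (-7.27 ± 0.0897). H19, described above, was the reverse, by 7.11 ± 0.347. The pluripotency gene DPPA4 was at 0 in ONS76 and at 60.3, 59.9 and 58.4 CPM in DAOY, at least 2300-fold higher.

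Metabolic genes separated glycolysis from amino acid synthesis. Of 21 tested glycolysis and glucose uptake genes, 9 were at least 2-fold higher in ONS76 and 1 in DAOY. SLC16A3, the lactate exporter MCT4, was at 453, 441 and 497 CPM in ONS76 and 7.05, 6.74 and 6.67 in DAOY (6.09 ± 0.0571). LDHA, which makes lactate, was at 1584, 1429 and 1549 CPM against 503, 492 and 464 (1.64 ± 0.0425), and HK1 differed by 2.19 ± 0.0385. The glucose transporter SLC2A3 was the gene higher in DAOY, at 2.3, 2.1 and 1.65 CPM against 68.0, 69.8 and 62.5 (-5.04 ± 0.0847), and PKM did not pass the test (-0.07 ± 0.0376, adjusted p = 0.0988) with all libraries, but did without replicate 3 of ONS76 (0.0465) or of DAOY (0.0334). Of 21 serine, proline and one-carbon genes, 10 were at least 2-fold higher in DAOY and 1 in ONS76. CTH, the enzyme that makes cysteine from cystathionine, was at 9.33, 11.4 and 10.6 CPM against 139, 134 and 126 (-3.68 ± 0.0603), PSPH differed by -2.40 ± 0.0447 and PSAT1 by -1.45 ± 0.0397, both enzymes of serine synthesis. Mitochondrially encoded messengers were higher in ONS76 in 11 of 13, 7 of them by 2-fold, and MT-ND1 was at 1277, 1130 and 793 CPM against 232, 229 and 228 (2.22 ± 0.0969). Replicate 3 of ONS76 was the lowest of its line for MT-ND1. The summed TPM of these messengers was 24388 to 37278 in ONS76 and 18513 to 19600 in DAOY.

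Some differences lay in blocks along chromosomes. The genome was cut into 294 windows of 10 Mb with at least 10 tested protein-coding genes, and 16 had a median at least 1 log2 unit from the genome's median, 5 towards ONS76 and 11 towards DAOY. The end of chromosome 8, from 140 to 150 Mb, had 68 of 78 genes called higher in ONS76 and a median shift of 1.26. The window of chromosome 20 from 60 Mb had 41 of 53 higher in ONS76, also with a shift of 1.26. Towards DAOY, chromosome 14 from 70 to 80 Mb had 56 of 66 genes higher in DAOY (-1.06), and chromosome 11 from 100 to 110 Mb had 33 of 38 (-1.70). Over whole chromosomes, the median less the genome's median was 0.63 on chromosome 8 and -0.87 on chromosome 14, where 334 of 452 tested genes were called higher in DAOY. MYC lies on chromosome 8, and its window from 120 to 130 Mb was shifted by 1.01, a smaller value than the log2 difference of MYC itself.

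**Figure D4:**
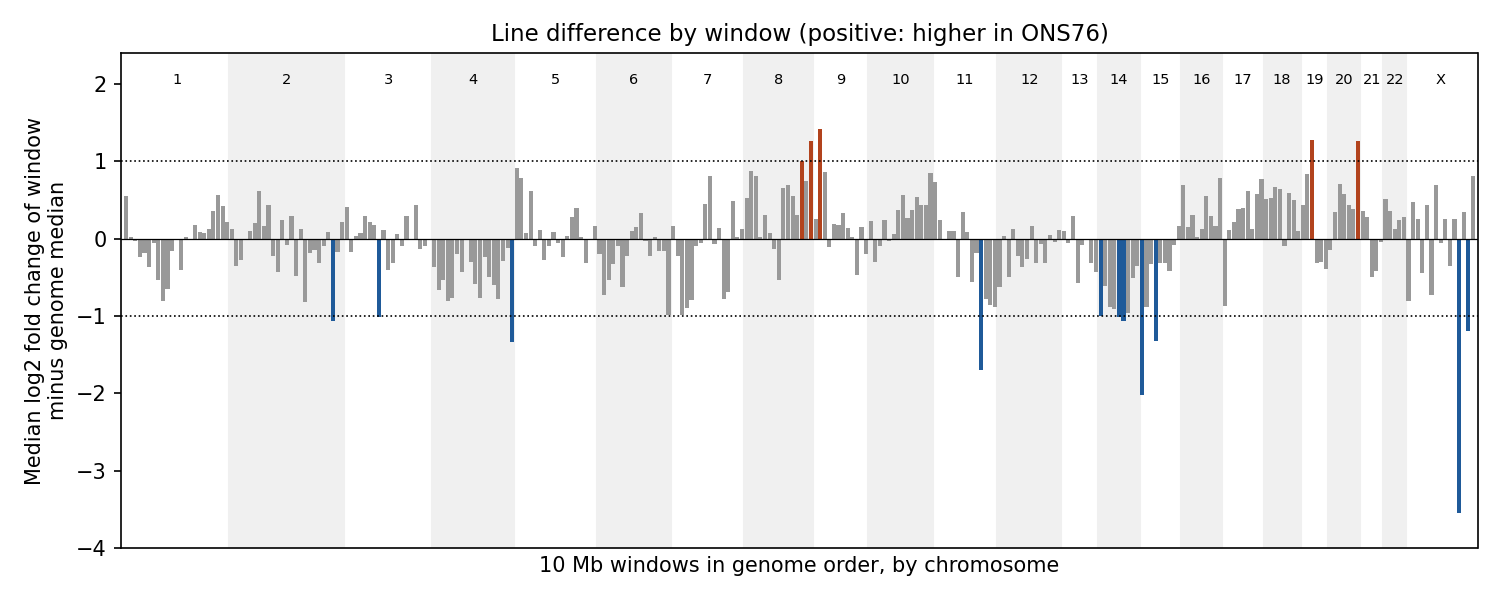
Median log2 difference (static ONS76 minus static DAOY) of tested protein-coding genes in each 10 Mb window, less the genome's median, in chromosome order. Coloured bars pass 1 log2 unit in either direction, 5 towards ONS76 (orange-red) and 11 towards DAOY (blue).

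Runs were taken as at least 4 consecutive tested protein-coding genes on a chromosome, all called and at least 4-fold different in 1 direction. Genes that were not tested were passed over, so a run can span genes with few or no reads. There were 9 runs towards ONS76, with 49 genes, and 44 towards DAOY, with 233 genes. Over all tested genes, 7.54% were called and at least 4-fold higher in ONS76 and 20.3% in DAOY. Whether the runs exceed what these shares would give was not tested. The keratin clusters were among the ONS76 runs. On chromosome 12, from 52424070 to 52949954, KRT75, KRT6B, KRT6C, KRT6A, KRT5 and KRT8 formed a run, and on chromosome 17, from 41459811 to 41624842, KRT32, KRT13, KRT15, KRT19, KRT14, KRT16 and KRT17 formed another. On chromosome 19, from 22179091 to 22784107, 5 zinc finger genes formed one more, and of 26 tested clustered zinc finger genes of that chromosome 20 were at least 2-fold higher in ONS76 and none in DAOY, with ZNF208 at 23.9, 25.5 and 23 CPM against 1.72, 2.00 and 2.14 (3.63 ± 0.108). Towards DAOY, 8 genes of the class II region on chromosome 6, from 32439842 to 32941070, formed a run that included HLA-DRA and the immunoproteasome genes PSMB8 and PSMB9. The SLFN genes on chromosome 17, from 35243036 to 35558098, formed a run of 6 that included SLFN11. The longest run, of 16 genes on the X chromosome, consisted mostly of CT47A copies, and reads cannot be assigned safely among such near-identical copies. Other runs also held copies of a single family, such as GOLGA8 genes on chromosome 15 and GAGE12 genes on the X chromosome.

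A block with few or no DAOY reads lay on the short arm of chromosome 9. KLHL9 had 5879 counts in static ONS76 and 0 in DAOY, at least 2221-fold higher. DMRTA1 had 2861 and 0 counts, at least 1081-fold higher, and TUSC1 had 4966 and 0, at least 1876-fold higher. These 3 genes span 21329671 to 25678440 and were also at 0 in the FSS libraries of DAOY. HACD4, just before KLHL9, had 68 counts and CDKN2B-AS1, between KLHL9 and DMRTA1, had 123 in ONS76, and both had none in static DAOY. The stretch was not empty in DAOY, since MIR31HG within it had 42 counts there against 2748 in ONS76, and LINC01239 had 1 against 732. At the margins DAOY had reads again, at several genes fewer than ONS76. FOCAD, which starts at 20658309, had 10214 counts in ONS76 and 1295 in DAOY, and CAAP1, at 26840685, had 4956 and 3164. IFT74 differed by only 0.23 ± 0.0552, or -0.18 on the authors' TPM, and at the other margin MLLT3 was higher in DAOY, with 174 and 2065 counts. Beyond MLLT3, the chromosome 9 window from 10 to 20 Mb had 14 of 21 genes called higher in ONS76 and 6 in DAOY. Its shift of 1.42 was the largest towards ONS76 of the 10 Mb windows. In it RPS6 had 304488 counts in ONS76 and 114531 in DAOY, and ACER2 had 2250 and 182, whereas PLIN2 had 28 and 1561. The tumour suppressors CDKN2A and CDKN2B and the neighbouring MTAP were listed at 0 in both lines and all libraries, so they separate nothing. Genes that dividing cells use were also nearly unread in this table, such as ALDOA with 33 and 10 counts and FEN1 with 14 and 7, so a gene listed at 0 in both lines is not evidence that it was silent.

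**Figure D5:**
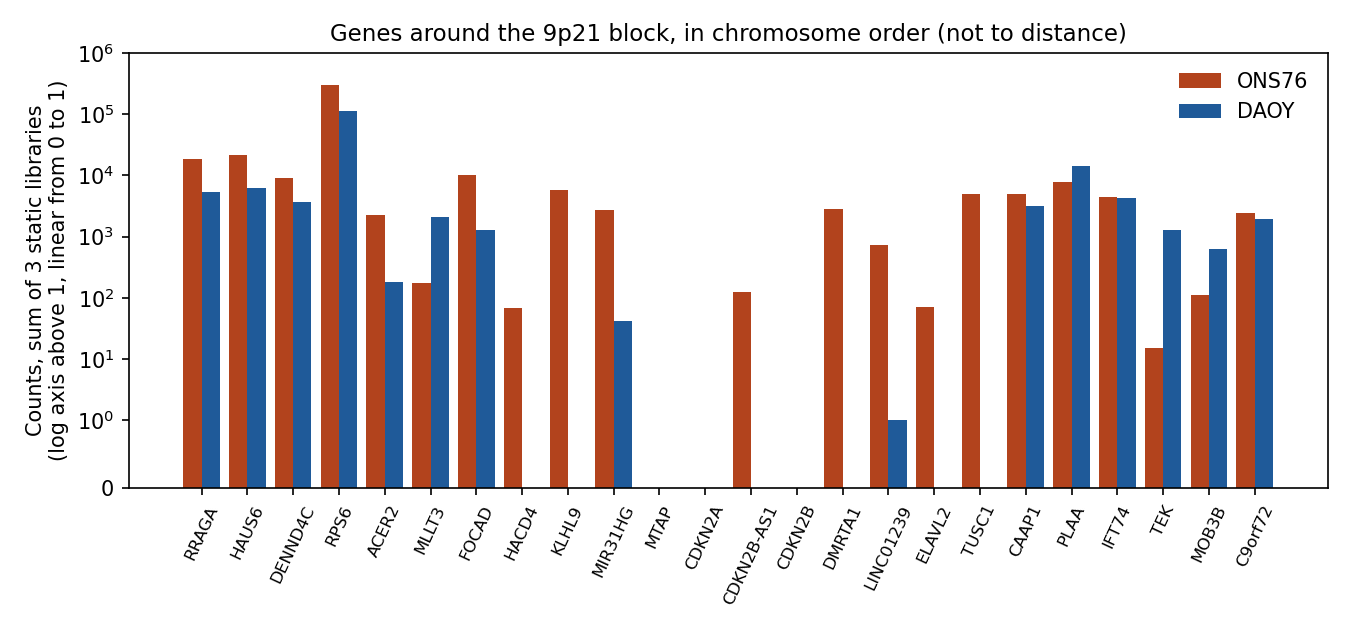
Counts summed over the 3 static libraries of ONS76 (orange-red) and DAOY (blue) for genes of the 9p21 region in chromosome order, on an axis that is logarithmic above 1. DAOY has no counts at HACD4, KLHL9, CDKN2B-AS1, DMRTA1, ELAVL2 and TUSC1, and counts in both lines return at FOCAD and CAAP1, with fewer in DAOY.

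The line difference was then set beside the same difference in the FSS libraries, which are other libraries of the same lines. In FSS, 16104 genes (82.0%) were called, and 14459 were called in the same direction in both conditions, 90.9% of the static calls and 89.8% of the FSS calls, while 155 were called in opposite directions. The size of the difference changed between conditions at 3740 genes (19.1%) by a test of the interaction, but at only 529 of these by 2-fold or more. The TP63, COL1A1, GLI2, HLA-B and MYC differences did not pass that test (adjusted p between 0.0654 and 0.949), whereas PLK2 (1.8e-17) and FST (9.83e-18) did.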

How the data were processed

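Polyadenylated RNA of 12 libraries (2 lines, static or FSS, 3 replicates each) was sequenced on an Illumina NovaSeq as paired reads, per the labels' protocols. Per the submitters' processing notes, HISAT2 2.2.1 and featureCounts were used with build GRCh38. For annotation, strand and overlap settings, nothing is given in the sources used here, so antisense and overlapping genes are uncertain. The deposited table holds raw counts per gene, and the authors also deposited TPM (levels scaled for transcript length and depth), which served for levels and as an alternative test. No column of the tables belonged to other samples (0 columns).

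All 12 libraries entered 1 model in edgeR 4.0.16 (R 4.3.3) with filterByExpr, TMM scaling and the quasi-likelihood test, and the contrast was static ONS76 minus static DAOY with a Benjamini-Hochberg adjusted p under 0.05. Differences are log2, and the standard error after each was derived from the test, as the absolute difference over the square root of F. Where a line had few counts, this value is smaller than counting error alone would give. It is then no measure of how precisely the difference is known. CPM are counts over TMM effective library sizes. Static libraries held 38.1 M to 49.3 M counts. The tested genes held 99.96% of all counts. Genes were placed with GENCODE 29, and upstream and microRNA sequences are from RefSeq. Alternatives used DESeq2 1.42.0 and limma 3.58.1 on log2(TPM + 1) and log2(TPM + 0.1). The fit was tested on simulated data of 18940 genes, with 50 genes changed at each size and all others at equal means. All changed genes had a mean of 1 CPM or more. The fit called 72% of those at 1.25-fold, 88% at 1.5-fold, 96% at 2-fold and 100% at 4-fold. Of its 188 calls, 10 were false. In the real contrast 81.0% of genes were called, so these rates need not hold for it.

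The comparison and gene lists were chosen with earlier results of these data known. Genes were named by a rule. It took the 15 largest differences per direction among called genes at 50 CPM or more whose static libraries did not overlap between lines. It also took up to 5 genes per list at 5 CPM or more with defining members, and up to 6 per block. Further genes were 10 per direction of the on and off genes, the 10 highest by TPM, and a short list of medulloblastoma and cell cycle genes. Not all of these are printed, a few results are not reported here, and genes named beyond the rule were chosen after their values were seen.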

Additional observations from a re-analysis of the deposited data

Results flagged for a closer look

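The line difference changed between the static and FSS libraries at 3740 genes by edgeR's test of the interaction, and 15 of the genes named above did so by 2-fold or more. The values here are the static log2 difference (ONS76 minus DAOY) less the FSS difference. ANKRD1 changed by 2.26 and CCN1 by 1.07, since both were further below DAOY in FSS, and MMP2 by -1.10, PDGFRB by -1.32, BMP7 by -1.53, LMX1B by -1.59 and PLK2 by -1.23, where the distance from DAOY was smaller in FSS. Genes higher in ONS76 that were closer to DAOY in FSS were FST, by 1.66, CDH5, by 1.56, SHH, by 1.40, and NTRK2, by 1.35. The values of COL1A2 (6.14), LEF1 (5.11) and KRT13 (-4.21) rest on a line at 0 in the FSS libraries, so they depend on the prior count and are no size of change. MYH7 changed by 8.54, but the 3 static ONS76 libraries were at 21.4, 7.36 and 0.0558 CPM. No reason for these changes was tested.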

How the results depend on the processing

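Each call was repeated with another tool, scaling, count filter, set of libraries or unit. Leaving out 1 static library at a time gave 7280 to 7330 genes higher in ONS76 and 8339 to 8498 higher in DAOY. Replicate numbers did not pair the samples, since deviations of same-numbered static libraries correlated by 0.032, 0.004 and -0.017. A block for the replicate number gave 7370 and 8425 calls, and 7378 and 8641 in FSS. Upper-quartile scaling moved the median of all genes by -0.22, and the TPM tests by -0.23 and -0.39 with pseudocounts of 1 and 0.1. The share of calls higher in ONS76 was then 38.3%, 31.6% and 31.4%, against 46.7%. Of 1380 counts of list members called under another setting, 1344 were within 1.5 times the value given, and 36 were not, mostly small counts on the TPM scale.

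Of 174 tested genes named here, 163 kept their direction and side of the threshold under every setting. The genes that reversed were near zero: CDH2 (-0.14 with upper-quartile scaling, -0.33 with either TPM pseudocount), IFT74 (-0.18 and -0.19 on TPM with pseudocounts 1 and 0.1), ITGB5 (-0.19 upper quartile, -0.38 on TPM), KRT18 (-0.10 on TPM) and MMP14 (-0.22 upper quartile, -0.41 and -0.42 on TPM). CDH2 also lost its call without replicate 3 of DAOY (adjusted p = 0.212) and without replicates 1 (0.211) or 2 (0.0811) of ONS76. HES1 lost its call without replicate 1 of DAOY (0.123) or replicate 3 of ONS76 (0.322), and LAMC1 without replicate 1 of ONS76 (0.059).

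Counts of blocks depended on their definition. In 5 Mb windows, 8 were shifted towards ONS76 and 28 towards DAOY. Runs towards ONS76 numbered 32 with 3 or more genes, 65 at 2-fold and 5 at 8-fold, and towards DAOY 127, 135 and 26, with 25 of 5 or more genes. Allowing 10 counts in the off line gave 41 genes on in ONS76 and 288 on in DAOY, and an on level of 1 CPM gave 57 and 482. Depth limited genes at 0 to a floor of 3 counts over a line's 3 libraries, which covers counting error only.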
